A study of Neurospora crassa with 11 samples.

Results

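The pentose phosphate pathway of Neurospora crassa, a filamentous fungus, was followed through 4 genes: transketolase (NCU01328), transaldolase (NCU02136), glucose 6-phosphate dehydrogenase (NCU09111) and 6-phosphogluconate dehydrogenase (NCU03100, RefSeq symbol ppm-2). They are 4 of the 9758 genes counted in each of 11 RNA-seq libraries, all 4 passed the filter on low counts, and the product names in the authors' tables carry the same 4 functions. The libraries came from whole mycelium grown for 16 h in a minimal salt medium with sucrose, washed, and moved to fresh medium that held xylan, sucrose or no carbon source at all. Xylan, a hemicellulose of plant cell walls, has a backbone of xylose, and XLR-1 is a transcription factor known for activating xylan and xylose genes.

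The groups were wild type OR74A (FGSC2489) on xylan with 3 libraries, an xlr-1 deletion strain (deltaxlr-1::HygR) on xylan with 4, an XLR-1 A828V strain without carbon with 3, and the same A828V strain on sucrose with 1. Per the labels, the A828V strain also lacked its own xlr-1 (deltaxlr-1::HygR) and carried the A828V allele at his-3, driven by the promoter of ccg-1 and not by its own. ccg-1 is a clock-controlled gene that glucose is known to repress. Each mutant is represented by 1 strain. A 5th condition, wild type without carbon, entered only as group means in the authors' deposited comparison tables.

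The pathway has an oxidative branch, in which glucose 6-phosphate dehydrogenase and then 6-phosphogluconate dehydrogenase oxidise glucose 6-phosphate to a pentose phosphate and yield NADPH. In its non-oxidative branch, transketolase and transaldolase exchange carbon units between sugar phosphates and so connect pentose phosphates with glycolysis. In fungi, xylose from xylan reaches the pathway as xylulose 5-phosphate, after xylose reductase, xylitol dehydrogenase and xylulokinase.

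On assembly NC12, transketolase lies on chromosome V at 3672514 to 3675677. The other 3 genes lie on chromosome I, transaldolase at 1126296 to 1129113, 6-phosphogluconate dehydrogenase at 4553397 to 4556315 and glucose 6-phosphate dehydrogenase at 5357032 to 5360293. The transaldolase locus overlaps NCU02137, and since no source used here says whether strand was kept, reads of the overlap cannot be told apart. The log2 difference of NCU02137 between deletion and wild type on xylan was -0.07 (SE 0.24).

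The libraries held 10317390 to 18927605 counts in genes, and each member had at least 2937 counts in every library. The deleted gene xlr-1 stood at 112 to 158 CPM (read counts scaled to a common library size) in wild type, 3.28 to 11.8 CPM in the deletion libraries, 109 to 129 CPM in A828V without carbon and 199 CPM in A828V on sucrose. The A828V strain is labelled as mating type a, yet its libraries without carbon held 107 to 143 counts of the mating type A gene matA-1, against 12 on sucrose, 91 to 125 in wild type and 0 in all 4 deletion libraries. Between A828V without carbon and on sucrose, the difference of matA-1 was called (log2 difference 2.66, adjusted p = 0.0422). Markers of conidia, the asexual spores (con-6, con-8, con-10 and eas), summed to 19693 to 23264 CPM in A828V without carbon, against 209 to 2393 in wild type, 387 to 2010 in the deletion and 553 on sucrose, and none of the 4 markers was at 0 in any library. Most of the sum in A828V without carbon was eas (16714 to 19834 CPM). The range of con-10 overlapped between A828V without carbon (38.1 to 55.9 CPM) and the deletion (10.9 to 59.1 CPM). In the authors' deposited table of A828V against wild type, both without carbon, con-10 was called lower (log2 difference -1.90, adjusted p = 0.000107). There eas, con-6 and con-8 were not called. In bulk RNA, fewer cells of a type and less RNA per cell cannot be told apart. Wild-type library 1 stood apart for the members: they took 0.971% of its gene counts, against 0.389% and 0.331% in wild-type libraries 2 and 3.

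Transketolase, which moves 2-carbon units between sugar phosphates, measured 4116, 1692 and 1223 CPM on xylan in wild-type libraries 1 to 3. It stood at 876, 535, 638 and 805 CPM in deletion libraries 1 to 4, at 1173, 1332 and 1268 CPM in the A828V libraries without carbon, and at 1885 CPM in A828V on sucrose. Every deletion library was below every other library, while the wild-type and A828V ranges without carbon overlapped. The group means were 2344 ± 1553 CPM in wild type (SD, n = 3), 714 ± 155 in the deletion (n = 4) and 1258 ± 79.8 in A828V without carbon (n = 3).

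Transaldolase, which moves 3-carbon units, measured 2733, 651 and 867 CPM on xylan in wild type, and 659, 355, 219 and 418 CPM without xlr-1. It stood at 625, 657 and 657 CPM in A828V without carbon and at 1730 CPM on sucrose. Deletion library 1 lay just above wild-type library 2, so the wild-type and deletion ranges overlapped, and wild-type library 1 and the sucrose library were far above all the rest. The means were 1417 ± 1145 CPM in wild type, 413 ± 184 in the deletion and 646 ± 18.1 in A828V without carbon.

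Glucose 6-phosphate dehydrogenase, the entry enzyme of the oxidative branch, measured 954, 626 and 635 CPM on xylan in wild type, and 587, 588, 543 and 486 CPM without xlr-1. It stood at 457, 500 and 460 CPM in A828V without carbon and at 729 CPM on sucrose. Its range over the 11 libraries, 457 to 954 CPM, was the narrowest of the members. The wild-type libraries were above all deletion and all A828V libraries without carbon, and the deletion and A828V ranges overlapped. The means were 739 ± 187, 551 ± 47.8 and 473 ± 24.0 CPM in wild type, the deletion and A828V without carbon.

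6-Phosphogluconate dehydrogenase, the other NADPH-forming step, measured 2459, 1059 and 1074 CPM on xylan in wild type, and 1332, 617, 644 and 667 CPM without xlr-1. It stood at 670, 858 and 775 CPM in A828V without carbon and at 1759 CPM on sucrose. Deletion library 1 reached into the wild-type range, and the other 3 deletion libraries lay just below every A828V library without carbon. The means were 1531 ± 804, 815 ± 345 and 768 ± 94.1 CPM in wild type, the deletion and A828V without carbon.

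**Figure D1:**
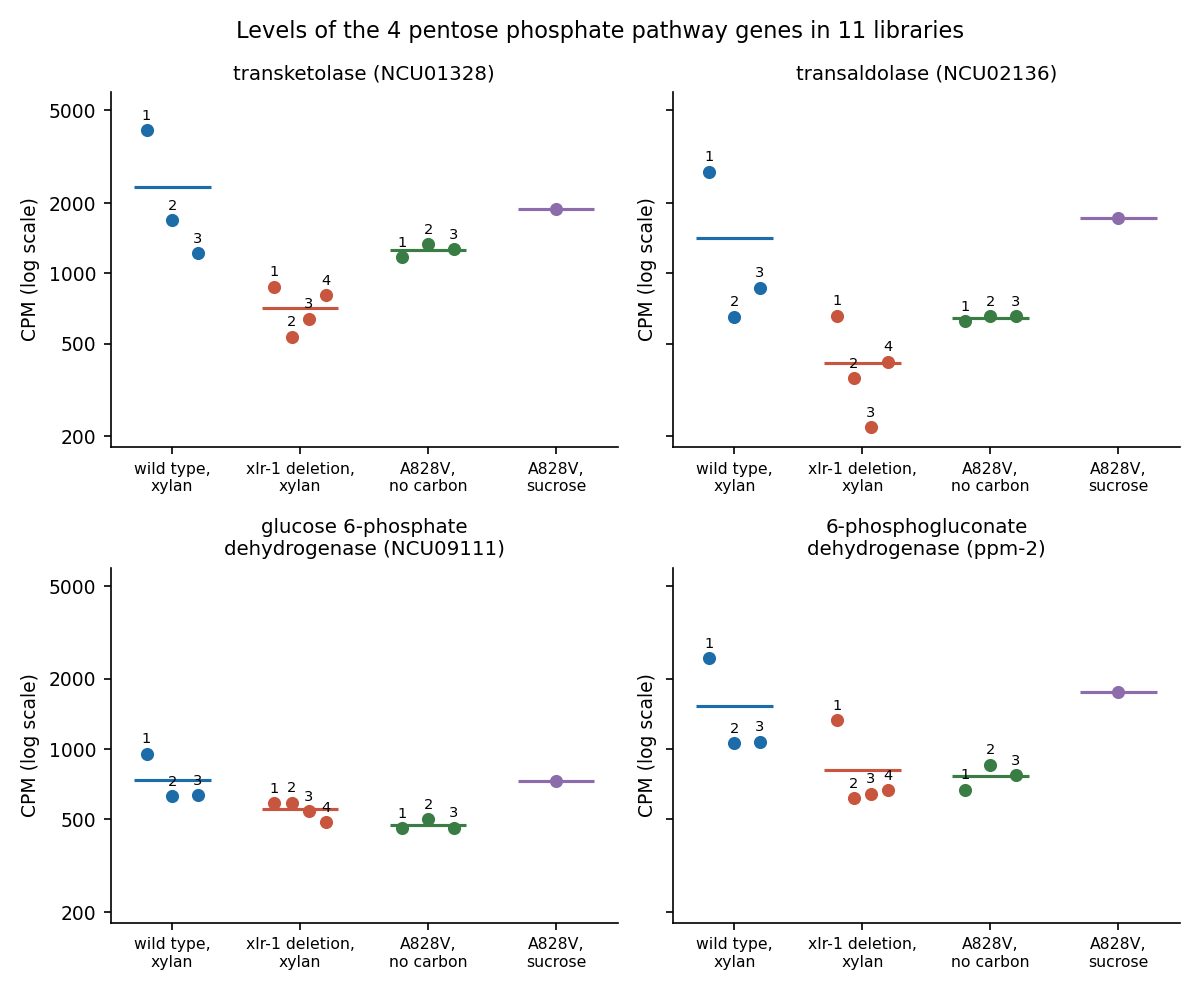
CPM of each gene (log axis) in the 11 libraries by group; points are libraries with their replicate numbers, lines are group means. Transketolase in the 4 deletion libraries (535 to 876 CPM) lay below all other libraries, and wild-type library 1 was the highest library for all 4 genes.

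By mean CPM, transketolase ran from wild type through A828V on sucrose and A828V without carbon to the deletion, and transaldolase from A828V on sucrose through wild type and A828V without carbon to the deletion. Glucose 6-phosphate dehydrogenase ran from wild type through A828V on sucrose and the deletion to A828V without carbon. 6-Phosphogluconate dehydrogenase ran from A828V on sucrose through wild type and the deletion to A828V without carbon. The sucrose library fell within the wild-type range for every member, below wild-type library 1 and above libraries 2 and 3. Without library 1, wild type would thus follow A828V on sucrose for transketolase and glucose 6-phosphate dehydrogenase too, and without deletion library 1 the deletion would come last for 6-phosphogluconate dehydrogenase. The deletion and A828V libraries without carbon overlapped for all members but transketolase, wild type overlapped the deletion for transaldolase and 6-phosphogluconate dehydrogenase, and wild type overlapped A828V without carbon for transketolase and transaldolase. On the authors' FPKM scale (fragments scaled by length and library size), A828V without carbon stood above A828V on sucrose for transketolase (727 ± 30.6 against 628 FPKM), and for 6-phosphogluconate dehydrogenase it stood above the deletion (390 ± 46.9 against 349 ± 176 FPKM) and wild type above A828V on sucrose (609 ± 311 against 604 FPKM).

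Per length, transketolase was the most abundant of the members in all wild-type libraries (1590, 832 and 528 FPKM) and all A828V libraries without carbon (714, 762 and 705 FPKM). In deletion libraries 1 and 2 it was second to 6-phosphogluconate dehydrogenase (415 against 608 FPKM, and 278 against 301 FPKM). On sucrose transaldolase led with 673 FPKM, ahead of transketolase with 628, 6-phosphogluconate dehydrogenase with 604 and glucose 6-phosphate dehydrogenase with 232 FPKM. That library was the only one of the 11 in which transaldolase exceeded transketolase. Transketolase ranked 32nd among all genes by FPKM in wild-type library 1 and 389th in deletion library 2.

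On xylan, all 4 genes had lower mean levels without xlr-1, with the larger differences in the non-oxidative branch, but none passed the test across all genes. The difference between branches was not tested. The mating type gene matA-1 was also called lower in the deletion, at a mean of 0 against 8.39 CPM (edgeR adjusted p = 0.000693). The strains thus differ in more than xlr-1, and the parts of these differences cannot be told apart. The question was whether the deletion changed the pathway that takes up the products of xylose catabolism. The log2 difference, deletion over wild type, was -1.72 for transketolase (SE 0.39, adjusted p = 0.0975) and -1.78 for transaldolase (SE 0.50, adjusted p = 0.150). It was -0.91 for 6-phosphogluconate dehydrogenase (SE 0.38, adjusted p = 0.316) and -0.42 for glucose 6-phosphate dehydrogenase (SE 0.22, adjusted p = 0.418). In mean CPM these are 3.28-fold and 3.43-fold lower levels in the non-oxidative branch and 1.88-fold and 1.34-fold lower levels in the oxidative branch.

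With edgeR, 0 of the 4 genes were called at an adjusted p under 0.05, where 0.573% of the 8557 genes tested were called lower and 0.0234% higher, and 3 of 4 had an unadjusted p under 0.05, against 14.3% of all genes. DESeq2 called transketolase (adjusted p = 0.00184) and transaldolase (adjusted p = 0.0178), with 4.58% of its genes called. Transketolase and glucose 6-phosphate dehydrogenase did not overlap between the groups, a pattern that 5.01% of all genes showed in that direction. The median log2 difference was -1.31 over the members and 0.05 over all genes tested.

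How large these differences were rested on wild-type library 1. Without it the log2 difference was -1.03 for transketolase, -0.88 for transaldolase, -0.39 for 6-phosphogluconate dehydrogenase and -0.20 for glucose 6-phosphate dehydrogenase. Without wild-type library 3 instead, transketolase passed the edgeR test (-2.07, adjusted p = 0.0399), as 0.667% of genes did. Without wild-type library 1 and deletion library 1 together the differences were -1.14, -1.20, -0.73 and -0.23 in the same order, and none passed.

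Wild-type and deletion libraries were taken as pairs by their replicate numbers, and each same-numbered pair showed the lower level in the deletion for all 4 genes. The share of all genes that were lower in each pair was not counted. The fold from deletion up to wild type in pairs 1, 2 and 3 was 4.70, 3.16 and 1.92 for transketolase and 4.15, 1.83 and 3.96 for transaldolase. It was 1.85, 1.72 and 1.67 for 6-phosphogluconate dehydrogenase and 1.63, 1.07 and 1.17 for glucose 6-phosphate dehydrogenase. In each of the 3 pairs both dehydrogenases had smaller folds than transketolase and transaldolase. With the number as a block on the wild-type and deletion libraries alone, 97 genes were called, against 32 without the block on the same libraries, and 0 of the members in either fit (transketolase adjusted p = 0.103, transaldolase adjusted p = 0.0924).

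**Figure D2:**
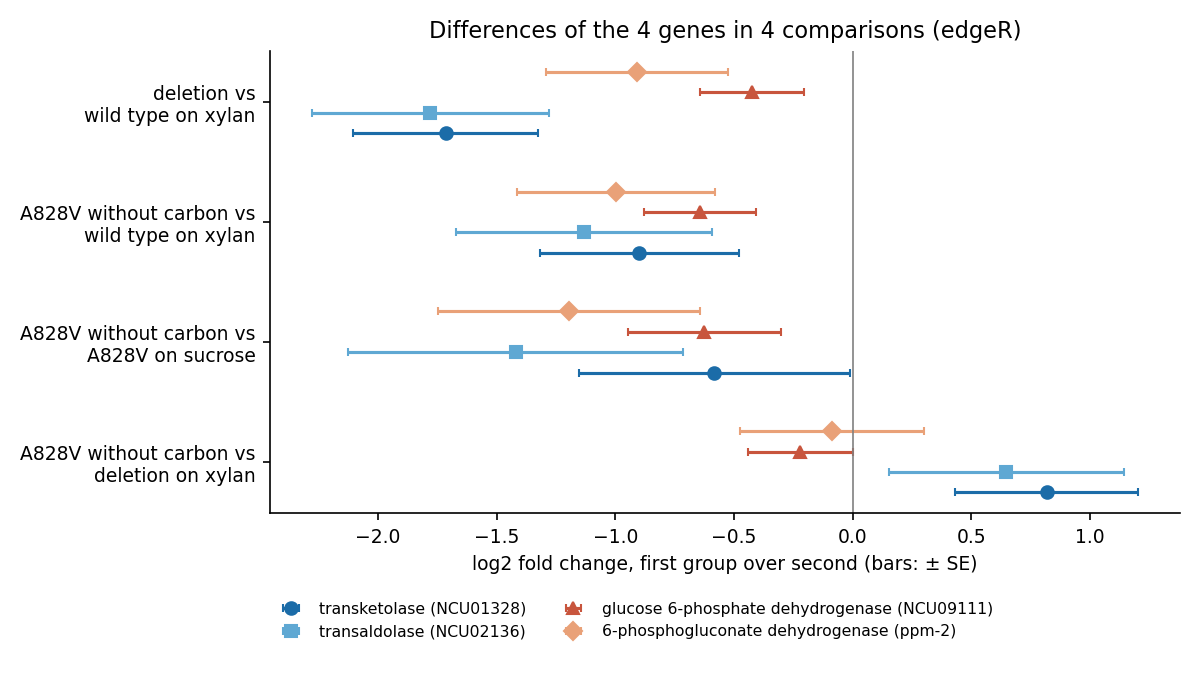
Log2 difference of each gene in 4 comparisons (first group over second, edgeR), with bars of 1 standard error. The non-oxidative genes lay furthest below 0 in the deletion on xylan (-1.72 and -1.78) and above 0 in A828V without carbon against the deletion (0.82 and 0.65).

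The levels of the branches relative to each other separated the deletion from the other libraries. This balance was taken as the log2 of summed FPKM of transketolase and transaldolase over summed FPKM of the dehydrogenases, a ratio within a library in which scaling between libraries cancels. It was 1.08, 0.80 and 0.52 in wild type on xylan, 1.002, 0.84 and 0.84 in A828V without carbon, and 0.64 in A828V on sucrose. In deletion libraries 1 to 4 it was -0.15, -0.22, -0.24 and 0.25, below each of the other libraries. The authors' group means gave -0.20 for wild type without carbon in both comparison tables, among the values of the deletion. The same kind of mean gave 0.75 for wild type on xylan and 0.70 for A828V without carbon. The latter was below each A828V library without carbon, so group means and single libraries are not on quite the same scale. Counts per kilobase of gene span in place of FPKM gave 0.30 to 1.001 in wild type, 0.55 to 0.68 in A828V without carbon, 0.55 on sucrose and -0.47 to 0.09 in the deletion, again without overlap. The balance is a description of 4 chosen genes and carries no test.

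**Figure D3:**
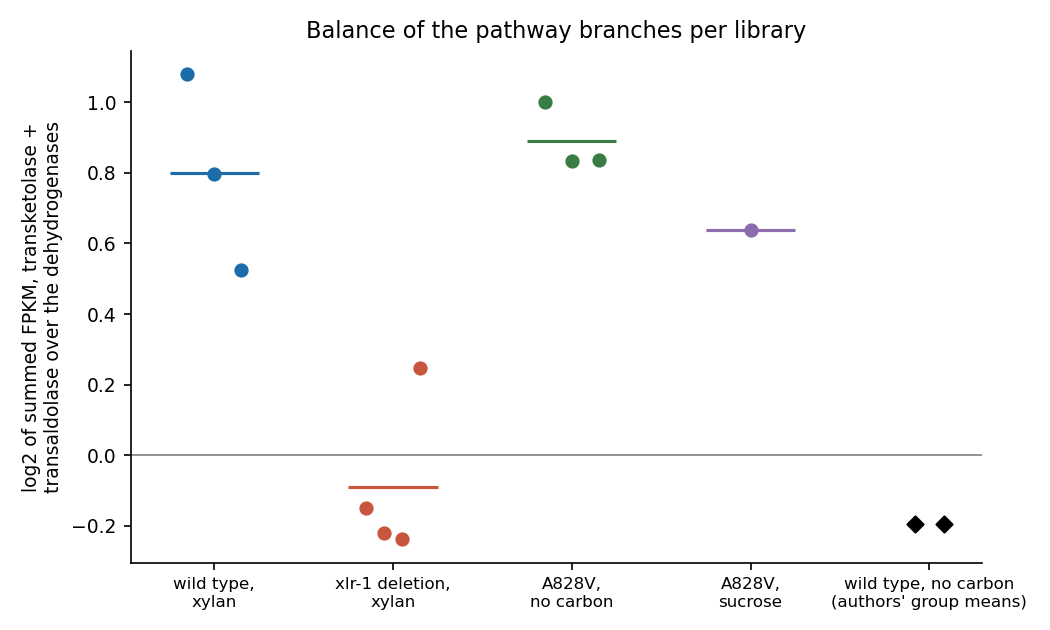
Log2 balance of the non-oxidative over the oxidative branch from summed FPKM; points are libraries, lines group means, and the diamonds come from the authors' mean FPKM of wild type without carbon in each of 2 comparison tables. The deletion libraries (-0.24 to 0.25) and wild type without carbon (-0.20) lay below all libraries of the other groups (0.52 to 1.08).

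Within each branch the proportions varied without such a separation. Transketolase over transaldolase ranged from 1.30 to 2.79 in wild type, from 1.90 to 2.17 in A828V without carbon and from 1.12 to 2.60 in the deletion, and was 0.934 on sucrose. 6-Phosphogluconate dehydrogenase stood above glucose 6-phosphate dehydrogenase in every library, by 2.07 to 2.67 times in wild type, 1.86 to 2.08 times in A828V without carbon, 2.61 times on sucrose and 1.27 to 2.31 times in the deletion.

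Xylan against no carbon in the wild type is held only in the authors' deposited table. There the mean of transketolase was 290 FPKM without carbon and 959 FPKM on xylan, a log2 difference of 1.73 with the authors' adjusted p of 0.216. In the authors' deposited table transaldolase went from 198 to 673 FPKM (1.77, adjusted p = 0.208), 6-phosphogluconate dehydrogenase from 365 to 669 FPKM (0.87, adjusted p = 0.735) and glucose 6-phosphate dehydrogenase from 192 to 302 FPKM (0.65, adjusted p = 0.829). All 4 means were higher on xylan and 0 of 4 were called, against 5.91% of genes called higher and 1.93% called lower in the authors' deposited table. Wild-type library 1, which stood apart above, belongs to the xylan group of that table.

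A828V against wild type, both without carbon, set the strains side by side without an inducing sugar. The strains differ in the allele, promoter and site of xlr-1 together, and A828V is labelled as mating type a. These differences cannot be told apart. The gene matA-1 went from 29.5 FPKM in wild type to 5.76 FPKM in A828V in the authors' deposited table (log2 difference -2.36, adjusted p = 2.64e-06). In the authors' deposited table transketolase went from 333 FPKM in wild type to 609 FPKM in A828V (log2 difference 0.87, adjusted p = 0.420) and transaldolase from 227 to 322 FPKM (0.50, adjusted p = 0.876). Both dehydrogenases lay slightly lower in A828V in the authors' deposited table, glucose 6-phosphate dehydrogenase at 196 against 221 FPKM and 6-phosphogluconate dehydrogenase at 377 against 420 FPKM. None of the 4 was called, against 2.94% of genes called higher and 1.57% called lower in the authors' deposited table. Both tables hold the same wild type without carbon, normalized separately in each.

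**Figure D4:**
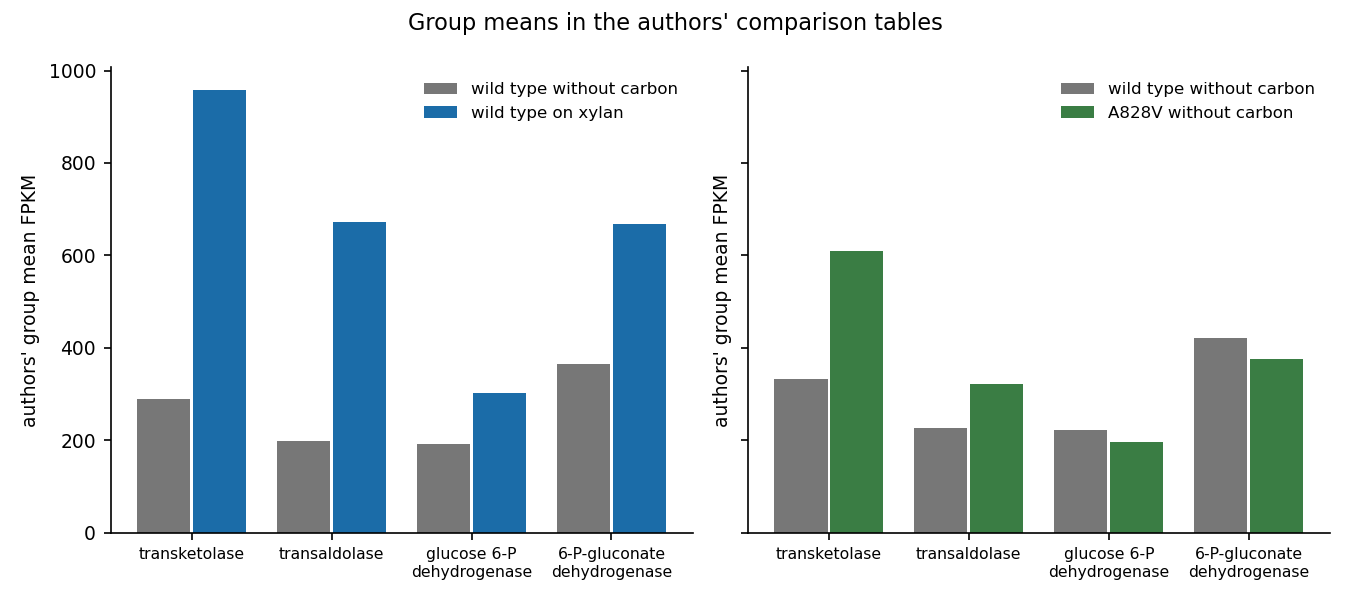
Mean FPKM per group from the authors' deposited comparison tables, wild type without carbon beside xylan-grown wild type (left) and beside A828V without carbon (right); bars start at 0 and carry no error. Transketolase was 290 and 959 FPKM on the left and 333 and 609 FPKM on the right, and none of the 4 genes was called in either table.

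Among the 11 libraries, A828V without carbon could be set against 3 groups, all of which differ from it in carbon source. Wild type and the deletion differ from it in genotype as well, and there carbon and genotype cannot be told apart. Against the same wild-type libraries on xylan as above, all 4 log2 differences were negative, -0.90 for transketolase (SE 0.42, adjusted p = 0.149), -1.13 for transaldolase (SE 0.54, adjusted p = 0.156), -0.64 for glucose 6-phosphate dehydrogenase (SE 0.24, adjusted p = 0.0770) and -0.995 for 6-phosphogluconate dehydrogenase (SE 0.42, adjusted p = 0.112). With edgeR 0 of 4 were called, against 11.5% of genes called lower and 9.29% higher, and the unadjusted p was under 0.05 for 2 of 4, against 36.8% of all genes. DESeq2 called glucose 6-phosphate dehydrogenase (adjusted p = 0.0227) among the 28.7% of genes it called. The ranges of glucose 6-phosphate and 6-phosphogluconate dehydrogenase lay wholly below wild type, as those of 25.9% of genes did. With wild-type library 1 left out, and deletion library 1 with it, the differences shrank to -0.21, -0.23, -0.42 and -0.47 in the same order.

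Against A828V on sucrose, a single library whose spread was taken from the other groups, all 3 libraries without carbon were lower for each of the 4 genes, as 41.3% of all genes were. The log2 differences were -0.58 for transketolase (SE 0.57, adjusted p = 0.499), -1.42 for transaldolase (SE 0.71, adjusted p = 0.181), -0.63 for glucose 6-phosphate dehydrogenase (SE 0.32, adjusted p = 0.195) and -1.20 for 6-phosphogluconate dehydrogenase (SE 0.55, adjusted p = 0.153). With edgeR 0 of 4 were called, against 10.4% of genes called lower and 8.39% higher, the unadjusted p was under 0.05 for 0 of 4, against 34.3% of all genes, and DESeq2 called none of the 4. With spread estimated from these 2 groups alone, edgeR called all 4 (adjusted p = 0.000283 to 0.0243), as it did 62.3% of genes. With wild-type library 1 and deletion library 1 left out of the 11-library fit, which removes none of the 4 libraries compared here and changes the estimated spread, it called transaldolase (adjusted p = 0.0201) and 6-phosphogluconate dehydrogenase (adjusted p = 0.0117), with 27% of genes called. On the FPKM scale the difference of transketolase turned to 0.21.

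Against the deletion on xylan, the non-oxidative genes lay higher in A828V without carbon and the oxidative genes close to equal. The log2 difference was 0.82 for transketolase (SE 0.39, adjusted p = 0.196), 0.65 for transaldolase (SE 0.50, adjusted p = 0.414), -0.22 for glucose 6-phosphate dehydrogenase (SE 0.22, adjusted p = 0.537) and -0.09 for 6-phosphogluconate dehydrogenase (SE 0.39, adjusted p = 0.905). With edgeR 0 of 4 were called, against 4.9% of genes called higher and 3.8% lower, and the unadjusted p was under 0.05 for 0 of 4, against 28.1% of all genes. No member was called by DESeq2, and transketolase was called by limma on log2(FPKM + 1) (adjusted p = 0.0446), as were 9.63% of genes. Transketolase did not overlap between these groups, as 16.6% of genes did not in that direction. With deletion library 1 left out, and also wild-type library 1, which enters here through the estimated spread alone, transketolase (0.93, adjusted p = 0.0348) and transaldolase (0.97, adjusted p = 0.0451) passed the edgeR test, as 16.1% of genes did. With deletion library 1 alone left out the differences were the same, and neither passed (adjusted p = 0.170 and 0.221). The sum of the conidial markers differs in each comparison of A828V without carbon among the 11 libraries, and its part in these values was not tested.

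Of the 5 genes that lead from pentoses into the pathway, 4 were called in at least 1 of the comparisons of the 11 libraries, and how they differ from the members was not tested. Deletion against wild type called 3 of 5 lower: xylose reductase (xr, -6.35, adjusted p = 2.81e-05), xylulokinase (xyk-1, -4.26, adjusted p = 0.000359) and xylitol dehydrogenase (NCU00891, -3.82, adjusted p = 0.000204). L-arabinitol 4-dehydrogenase (NCU00643, -1.63, adjusted p = 0.0589) and L-xylulose reductase (NCU09041, 591, 795, 809 and 288 CPM in the deletion against 480, 587 and 787 CPM in wild type), which serve arabinose, were not called. The median log2 difference was -3.82 over the 5, against 0.05 over all genes, of which 0.573% were called lower and 0.0234% higher. A828V without carbon against the deletion called xr, xyk-1 and NCU00891 higher, by 5.06, 4.60 and 3.37, and NCU00643 lower (-3.59, adjusted p = 0.000399). In that comparison 4.9% of all genes were called higher and 3.8% lower. Relative to xylan-grown wild type, A828V without carbon called NCU00643 (-5.22, adjusted p = 0.00013) and xr (-1.30, adjusted p = 0.0377) lower, and relative to sucrose 0 of 5. Of all genes, 11.5% were called lower and 9.29% higher against wild type, and 10.4% and 8.39% against sucrose. The call of xr against wild type was lost with 5 of 6 libraries left out in turn (adjusted p up to 0.120), and the other 8 calls held with every library left out. In the authors' deposited table of A828V against wild type, both without carbon, xr (8.08), NCU00891 (5.16) and xyk-1 (4.51) were called higher. NCU00643 (0.03) and NCU09041 (-0.10) were not called there, where 2.94% of genes were called higher and 1.57% lower. Their table of wild type on xylan against no carbon called 4 of 5 higher, NCU00643 (5.17) among them, and 5.91% of genes.

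Of 15 further genes annotated to the pathway or the use of ribose phosphate, 0 were called between deletion and wild type, against 0.573% of all genes called lower and 0.0234% higher. The median log2 difference of the 15 was -0.39, and 3 had an unadjusted p under 0.05, where 14.3% of all genes did. Those 3 were a 6-phosphogluconolactonase (NCU07143, -2.87, adjusted p = 0.147), the step between the dehydrogenases, and a pair of ribose 5-phosphate isomerases (NCU10107, -3.50, adjusted p = 0.279, and ppm-3, -0.78, adjusted p = 0.324). NCU07143 stood at 696, 150 and 161 CPM in wild type against 9.19, 16.0, 53.4 and 105 CPM in the deletion, while the lactonase ppm-1 ranged from 72.1 to 212 CPM in wild type and from 30.6 to 111 CPM without xlr-1. NCU10107 measured 399, 69.8 and 94.4 CPM on xylan in wild type, 60.3, 3.08, 0.22 and 2.62 CPM without xlr-1, 25.3, 19.9 and 31.8 CPM in A828V without carbon and 0.44 CPM on sucrose. Its deletion libraries were all below its wild-type libraries.

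In the authors' deposited table, 4 of these 15 were higher in wild type on xylan than without carbon: NCU10107 (log2 difference 3.73), NCU07143 (3.67) and the ribose-phosphate pyrophosphokinases NCU01786 (2.31) and NCU05254 (1.78), enzymes that make the precursor of nucleotides. That table called 5.91% of all genes higher and 1.93% lower. With A828V in place of xylan, the authors' deposited table called NCU07143 higher (2.03) and ppm-3 lower (-1.27), against 2.94% of all genes called higher and 1.57% lower.

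In A828V without carbon, 3 of the 15 were lower and 1 higher than in xylan-grown wild type, where 11.5% of all genes were called lower and 9.29% higher. The log2 difference was -1.79 for the isomerase ppm-3 (adjusted p = 0.0109), -1.68 for the pyrophosphokinase NCU06970 (adjusted p = 0.0387) and -2.33 for NCU06123 (adjusted p = 0.0470), a phosphoketolase, an enzyme that splits pentose phosphates, while it was 1.04 for the pyrophosphokinase rpd (adjusted p = 0.0474). Of these, ppm-3 was also lower than on sucrose (-2.29, adjusted p = 0.0102), the 1 of 15 called there, and 0 of 15 were called between A828V without carbon and the deletion. Over all genes, 10.4% were called lower and 8.39% higher against sucrose, and 3.8% and 4.9% against the deletion. The calls against wild type were lost with 2 of 6 libraries left out in turn for ppm-3, 5 of 6 for NCU06970 and NCU06123 and 6 of 6 for rpd, with adjusted p up to 0.147, and that of ppm-3 against sucrose held with each of 3 left out. The sum of the conidial markers differs between the same libraries, and its part was not tested.

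**Figure D5:**
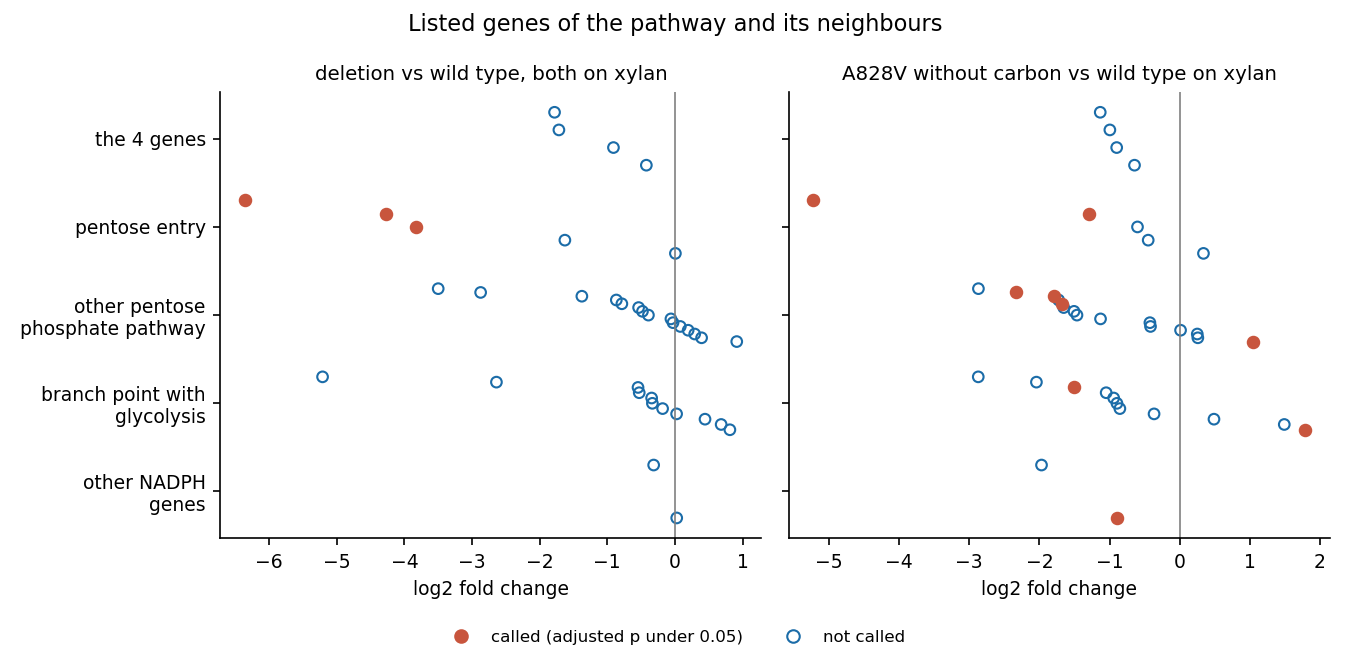
Log2 difference of each listed gene for the deletion (left) and for A828V without carbon (right), each over xylan-grown wild type; filled points passed the edgeR test at an adjusted p under 0.05, and rows are gene lists. On the left 3 pentose entry genes were called (-6.35 to -3.82) and 0 members, with the members between -1.78 and -0.42.

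Of 11 genes at the branch point with glycolysis, from hexokinases to triosephosphate isomerases, 0 were called between deletion and wild type. In that comparison 0.573% of all genes were called lower and 0.0234% higher. Between A828V without carbon and on sucrose, where 10.4% of all genes were called lower and 8.39% higher, 3 were lower, phosphofructokinase emp-3 (-2.59), triosephosphate isomerase NCU07550 (-2.18) and aldolase fba (-1.62), and hexokinases NCU04728 (2.61) and NCU06996 (1.08) were higher. Relative to xylan-grown wild type, glucokinase NCU00575 (-1.51) was lower and glucokinase NCU02702 (1.79) higher in A828V without carbon, and relative to the deletion 0 were called. Over all genes, 11.5% were called lower and 9.29% higher against wild type, and 3.8% and 4.9% against the deletion. The other NADPH genes on the list were an NADP-dependent malic enzyme (NCU03651), called in none of the 4 comparisons, and glutathione reductase (NCU03339), which consumes NADPH and was lower in A828V without carbon than in xylan-grown wild type (-0.89, adjusted p = 0.0458). With libraries left out in turn, the calls of NCU07550 held with all 3, and those of emp-3, fba, NCU04728, NCU06996 and NCU03339 were lost with each (adjusted p up to 0.161), as were NCU00575 with 5 of 6 and NCU02702 with 4 of 6.

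Likeness of profiles was measured as the root mean square difference of log2 CPM over the 11 libraries, each gene centred on its own mean, among 6615 genes with a mean of at least 10 CPM. Transketolase was nearest to NCU07492 (0.30, hypothetical protein), NCU00389 (0.33, a GTP-binding protein) and calreticulin NCU09265 (0.33). Transaldolase was nearest to met-7 (0.37, cystathionine gamma-synthase) and NCU03323 (0.38, hypothetical protein), with transketolase next (0.40). Glucose 6-phosphate dehydrogenase was nearest to NCU06776 (0.13), NCU05717 (0.13, a ribosomal protein) and NCU04182 (0.13, a splicing factor subunit), and 6-phosphogluconate dehydrogenase to NCU04578 (0.21, a Clp protease subunit), NCU06091 (0.22) and cys-17 (0.23, cysteine synthase). The members of 1 branch were thus not each other's closest profiles: transaldolase was 11th from transketolase, and the dehydrogenases differed by 0.39, at rank 260 from 6-phosphogluconate dehydrogenase and 1512 from glucose 6-phosphate dehydrogenase. Transketolase and transaldolase were still closer than the 5th percentile of distances (0.61 from transketolase, 0.73 from transaldolase). This was not particular to their branch. 6-Phosphogluconate dehydrogenase was also within it, at 0.44 from transketolase (rank 23) and 0.47 from transaldolase (rank 13). Glucose 6-phosphate dehydrogenase was beyond it from both (0.616 and 0.763). The 5th percentile was 0.41 from 6-phosphogluconate dehydrogenase and 0.26 from glucose 6-phosphate dehydrogenase.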

How the data were processed

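RNA-seq of 11 libraries was analysed. Per the submitters' processing notes the tools were TopHat2 2.04, HTSeq 0.6, Cufflinks 2.02 and Cuffdiff 2.02. Build and parameters: not given in the sources used here; all 44 listed loci equal those of RefSeq assembly NC12. Raw counts of reads, 1 value for each of 9758 genes and library, are as the authors deposited them, and the 5 entries that name no gene (6.34% to 29.57% of a library, highest in deletion library 2) were left out. The deposited FPKM tables hold the authors' length- and depth-scaled values. For 9600 genes, the authors' comparison tables give mean FPKM by group with a log2 ratio and its adjusted p-value, per the file headers; their 12 single-library columns were not used.

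The test of counts was that of edgeR 4.0.16, run in R 4.3.3 (TMM factors, filterByExpr with a count minimum of 10, quasi-likelihood F-test, 2-sided, Benjamini-Hochberg over 8557 genes, calls under an adjusted p of 0.05). A single fit over all 11 libraries had 1 coefficient for each group and 7 residual degrees of freedom. SE is the size of the log2 difference divided by the root of F. CPM values use library size times TMM factor. Alternatives were DESeq2 1.42.0, limma 3.58.1 on log2(FPKM + 1), other filters, scalings and libraries left out. The procedure was tested on simulated counts. The members, lists, rule for named genes (members, label checks, listed genes and the 3 nearest profiles per member) and tests were chosen with earlier results of these data known. Lists came from product names. One gene, NCU02906, was dropped because its product uses NAD.

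Groups and numbers came from the labels, which do not say that libraries are separate cultures, so the p-values reflect the spread between these libraries alone, possibly a technical one. No 2 libraries of a group agreed within sampling noise (chi-square per degree of freedom at least 19.0). Deviations from group means correlated at 0.640, 0.264 and 0.252 for wild-type and deletion libraries 1, 2 and 3, all above 0.1, so these numbers were taken as pairs. Unlike numbers reached 0.247 (wild-type library 3 with deletion library 2), 0.159 and 0.156, while same-numbered A828V libraries gave -0.23 to -0.03 with either group and were not taken as pairs.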

Additional observations from a re-analysis of the deposited data

Results flagged for a closer look

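The level of 6-phosphogluconate dehydrogenase (NCU03100) in deletion library 1 lay far from the other 3 deletion libraries. It was 1332 CPM, against 617, 644 and 667 CPM, a gap to the nearest library of 0.929 of the whole range, above the critical value of 0.829 for 4 libraries. This check flags about 1 in 20 groups by chance, and 5 sets of values were examined. Wild-type library 1, with the same number, was also the highest of its group for this gene (2459 CPM against 1059 and 1074).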

How the results depend on the processing

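In 17, 15, 11 and 16 alternatives per member for deletion against wild type, A828V without carbon against wild type, against sucrose and against the deletion, every log2 difference kept its sign except for transketolase against sucrose and 6-phosphogluconate dehydrogenase against the deletion. The former, -0.58, was 0.21 under all 3 fits of limma on FPKM. The latter, -0.09, was 0.27 under the same 3 fits, 0.26 without both xylan libraries numbered 1 (wild type and deletion) and -0.20 to 0.26 with single libraries left out. On log2(FPKM + 1) the median of all genes itself shifted to 0.11 for deletion against wild type, 0.45 against sucrose, 0.30 against wild type and 0.16 against the deletion, so relative to it transketolase was lower than on sucrose. There the calls split into 428 lower and 1397 higher against sucrose (894 and 718 with edgeR), 522 and 1527 against wild type (983 and 795), 155 and 652 against the deletion (325 and 419), and 51 and 17 for deletion against wild type (49 and 2).

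The count of members called, 0 in each comparison, became 2 (DESeq2) and 0 to 1 (single libraries left out) for deletion against wild type, and 1 (DESeq2) for A828V against wild type. It became 4 (both groups alone) and 2 (without both numbered 1) against sucrose, and 1 (limma on log2(FPKM + 1)) and 2 (without both numbered 1) against the deletion. Genes called for deletion against wild type, 51 of 8557, became 387 (DESeq2), 32 (both groups alone) and 97 (replicate block on these 7 libraries). Against sucrose, 1612 became 5266 (both groups alone) and 722 to 928 (libraries left out). Against wild type, 1778 became 3013 (both groups alone) and 540 to 1522 (libraries left out). Against the deletion, 744 became 1617 (DESeq2), 1380 (without both numbered 1) and 186 to 1132 (libraries left out). The cause was not tested.

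With the replicate block in the fit without the sucrose library, no call of a member changed, and 44, 2310 and 652 genes were called for deletion against wild type, A828V against wild type and A828V against the deletion. No paired analysis was possible because the sucrose library carries no number, as far as that comparison goes. The 7-library block, the fits without both xylan libraries numbered 1 and the balance from counts per kilobase were chosen after seeing the data. The search for an XLR-1 motif in promoters was not run, as no promoter sequence was used here. For the members, in a single sucrose library and groups of 3 or 4, the number of libraries, not counts per gene, limits precision. Some other listed genes had few counts, such as NCU10107 with 3 in deletion library 3 and 5 on sucrose.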

Other observations

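The ribose 5-phosphate isomerase NCU10107 lies in a row of 4 genes on chromosome IV, 3484755 to 3491899 on NC12, chosen here after their values were seen. The others are an aldolase (NCU04401), a hypothetical protein (NCU04400) and a triosephosphate isomerase (NCU10106), so 3 of the 4 are named for sugar phosphate enzymes, and the row spans 7145 bases. NCU04401 stood at 1595, 213 and 233 CPM in wild type on xylan, 54.4, 9.88, 2.76 and 6.40 CPM without xlr-1, 86.5, 88.5 and 104 CPM in A828V without carbon and 15.5 CPM on sucrose. NCU04400 stood at 868, 160 and 172 CPM in wild type, against 96.7, 1.27, 0.52 and 0.29 CPM in the deletion, and NCU10106 at 150, 58.0 and 50.4 CPM against 38.2, 5.89, 3.13 and 7.85 CPM. In all 4 genes every deletion library except number 1 was below 10 CPM and every wild-type library was at least 50.4 CPM, yet none of the 4 passed the edgeR test (adjusted p = 0.0718 to 0.302). The authors' deposited table called all 4 higher in wild type on xylan than without carbon, with log2 differences of 5.66, 3.998, 3.73 and 2.83 in chromosome order. Of all genes, 5.91% were called higher there. For A828V against wild type, both without carbon, their table called NCU04401 higher (2.99, adjusted p = 6.59e-13), among 2.94% of genes. NCU04400 (0.86), NCU10107 (1.08) and NCU10106 (0.63) were not called.

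The pyrophosphokinase NCU06970 lies 1847 bases from xlr-1, the gene deleted in both mutant strains. It stood at 157, 92.7 and 173 CPM on xylan in wild type, 54.1, 63.1, 68.6 and 203 CPM without xlr-1, and 47.1, 51.2 and 33.5 CPM in A828V without carbon. In A828V on sucrose it stood at 130 CPM, within the wild-type range. The lactonase NCU07143 lies on chromosome VI at 1305 to 3239.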
